A study of Mus musculus with 52 samples.

Results

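The cytosolic ribosomal protein genes were examined in mouse pancreatic tumors treated with a STING agonist, an agonist antibody to the lymphotoxin-β receptor, or both. Members were taken by name, as protein-coding genes whose symbol is Rpl or Rps followed by a digit, Rplp0 to Rplp2 or Rpsa, without the Rps6k kinases and names that contain -ps. The rule gave 86 members among the 27525 genes of the deposited table, of which 77 encode standard proteins of the ribosome, 46 of the large (60S) and 31 of the small (40S) subunit. The other 9 are the paralogs Rpl3l, Rpl7l1, Rpl22l1, Rpl36al, Rpl39l, Rps27l and Rps27rt, the binding protein Rps19bp1 and the retrogene Rps23rg1. The rule uses names alone and no measured value, although it was set with earlier results of these data known.

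All tumors grew subcutaneously in male C57BL/6NHsd mice, 8 to 10 weeks old, from a KPC cell line, which derives from a mouse pancreatic tumor made with Pdx1-Cre, a Cre driven by a promoter of the pancreatic lineage. Each of the 4 groups held 8 tumors, all resected on day 14 and sequenced individually as polyadenylated RNA. Untreated tumors received neither agent, ADU-S100 tumors 1 intratumoral injection of 2 µg of the STING agonist ADU-S100, anti-LTβR tumors 4 intraperitoneal injections of 100 µg of the agonist antibody 4H8, and combination tumors both agents. The study asked whether the agents induce tertiary lymphoid structures, which are lymph node-like clusters of B and T cells. The same cell line gave all 32 tumors, and the groups hold different mice. The study describes its RNA-seq of tumors in one place as a single experiment and in another as independent experiments combined, and the labels name no batch, so no within-batch value could be computed.

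A ribosome joins a small subunit, which reads the mRNA, to a large subunit, which forms the peptide bonds, and every protein of both subunits is made from a separate gene. Ribosomal protein mRNAs are among the most abundant of growing cells and typically begin with a cytosine followed by a run of pyrimidines, the terminal oligopyrimidine (TOP) motif, through which mTOR and LARP1 set their translation. The genes have also seeded the mammalian genome with many retrocopies, intronless copies of the processed mRNA, most of which are annotated as processed pseudogenes.

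The annotated transcription starts of members are shown because the TOP motif is the sequence feature that the family shares. RefSeq promoters of GRCm38.p6 were matched by symbol for 66 of the 86 members. In 14 of these 66 (21.2%) the annotated start was a C followed by at least 4 bases that were each C or T on the transcribed strand, against 3.01% of 27025 genes with a promoter. Such a run lay anywhere from 10 bases before to 20 after the start in 66.7% of members and 39.6% of all genes. Of motifs searched on both strands of the 300 bases, CCGGAAG, the core bound by ETS factors such as GABPA, was in 39.4% of members and 9.93% of all genes, AAGATGGC, a YY1 core, in 9.09% and 3.19%, and CACGTG, the E-box bound by MYC, in 9.09% and 8.09%. The stretches below run from 10 bases before to 20 after the start, and capitals mark the run that begins at the start. Only members out of the 14 with such a run are shown. They belong to members that were lower in combination tumors, the P-stalk gene Rplp2, and the pair Rps27 and Rps27rt, whose letters after the run are shared. Other lower members, among them Rpl12, Rps19bp1, Rpl18, Rpl19 and Rpl36a, had no run at the annotated start. Whether the run goes with lower levels was not tested.
Rps18 (chr17:33955646-33955675, minus strand): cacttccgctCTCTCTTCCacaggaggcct
Rpl15 (chr14:18270967-18270996, minus strand): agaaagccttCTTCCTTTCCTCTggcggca
Rpl35 (chr2:39005112-39005141, minus strand): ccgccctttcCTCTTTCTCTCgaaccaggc
Rpl35a (chr16:33056472-33056501, plus strand): gcttgccttcCTCTTTCCgccatcttggcg
Rplp2 (chr7:141447641-141447670, plus strand): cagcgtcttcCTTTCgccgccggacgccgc
Rps27 (chr3:90213629-90213658, minus strand): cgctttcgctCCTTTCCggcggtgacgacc
Rps27rt (chr9:114982720-114982749, minus strand): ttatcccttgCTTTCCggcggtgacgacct

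More reads of the family were counted on copies than on the members. The coding sequence of each member was compared with the transcripts of every other gene of the table, and 536 genes matched at 90% identity or more over at least 80% of it. Members that match another member were not counted as copies, which concerns 1 pair, Rps27 and Rps27rt, identical over all 255 coding bases. Of these copies 501 are annotated as processed pseudogenes, 20 as transcribed processed pseudogenes and 15 as protein-coding, and 76 members had at least 1. Copies held 55.6% of the normalized counts of members and copies together. In 24 members less than 10% of the family's counts lay on the member itself, and in 30 members at least 80% did. Rpl17, a large-subunit protein, averaged 8.19 normalized counts over the 32 tumors, which was 0.0737% of its family, and its copy Rpl17-ps8 averaged 6844 in untreated tumors. Rpl5, which carries 5S rRNA into the large subunit, held 1.11% of its family, and Rpl10, which joins the large subunit late in its assembly, 3.56%. Rpl4, Rps15 and Rplp1 held 98.8%, 98.1% and 92.4% of theirs, so their counts rest on the named gene. How the authors' counting divided reads between near-identical genes is not given in the sources used here. The main counts below are therefore given for members alone and for members summed with their copies.

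In Rps3a1 the direction of a change differed between the member alone and its sum with copies. Rps3a1 is a small-subunit protein at the mRNA exit side, with 6 copies, all held in its sum. The copies with the highest counts were Rps3a2 (chr14:88123017-88123808) and Rps3a3 (chr13:108670603-108671397) in GRCm38. Within the 795-base coding sequence of Rps3a1, Rps3a2 differed at 4 of positions 1 to 792 and Rps3a3 at 9 of positions 1 to 795, counted from 1 at the A of the start codon. The 60 bases with the most differing positions, 609 to 668, are shown with the differing bases in capitals, and the changes in it are A645T and T668C in Rps3a2 and A660G in Rps3a3.
Rps3a1: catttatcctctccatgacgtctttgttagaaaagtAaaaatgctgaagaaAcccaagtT
Rps3a2: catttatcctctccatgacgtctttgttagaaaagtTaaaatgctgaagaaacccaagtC
Rps3a3: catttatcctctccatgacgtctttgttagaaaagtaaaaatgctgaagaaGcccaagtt

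Among standard members, the level per kilobase of exon was highest for the P-stalk protein Rplp1 (19248.5 normalized counts per kb, mean of 32 tumors), Rps15 (15749) and Rpl4 (9735). The level per kb was lowest for Rpl24 (41.2), Rps13 (31.1) and Rpl17 (6.17), which held 0.839%, 1.85% and 0.0737% of their families.

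The mean share of RNA on the 86 members was highest in untreated tumors and lowest in combination tumors, and the groups overlapped. The share of all normalized counts ranged from 1.89% to 2.85% in untreated tumors (mean 2.20% ± 0.329, SD, n = 8), from 1.71% to 2.04% in ADU-S100 tumors (1.89% ± 0.0994), from 1.75% to 2.00% in anti-LTβR tumors (1.84% ± 0.078) and from 1.59% to 1.90% in combination tumors (1.77% ± 0.114). The untreated tumors were uneven. Untreated tumors 1 to 4 had 2.42%, 2.37%, 2.15% and 2.85%, and untreated tumors 5 to 8 had 1.92%, 2.01%, 1.89% and 1.98%, which lies within the range of the treated groups. Untreated tumor 4 stood apart, since it held the highest of the 8 untreated values in 79 of 84 members tested, so counts against untreated tumors are also given without it. With copies included the share averaged 4.98% ± 0.768 for untreated tumors, 4.29% ± 0.228 for ADU-S100, 4.15% ± 0.169 for anti-LTβR and 3.90% ± 0.283 for combination tumors. Counts on large-subunit members were 0.959 to 1.03 times those on small-subunit members in untreated tumors and 0.976 to 1.01 times in combination tumors. These shares are a description, and in bulk tumors fewer cells of a type and less RNA per cell cannot be told apart.

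**Figure D1:**
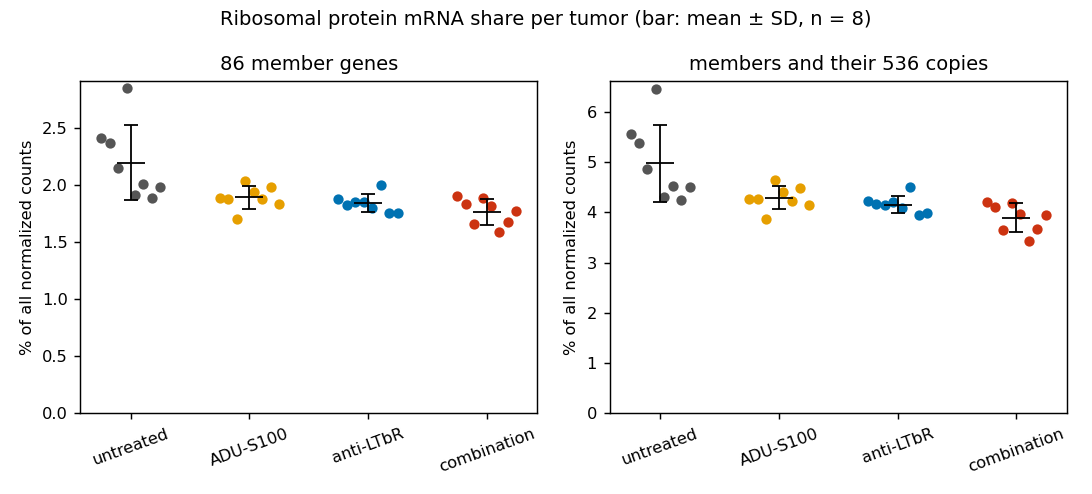
Share of all normalized counts (%, vertical axis) held by the 86 members (left) and by members with their 536 copies (right) in each of the 32 tumors, by group, with mean and SD over 8 tumors. Untreated tumor 4 is highest in both panels, and 4 untreated tumors lie within the range of the treated groups.

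Combination tumors had lower levels of most members than untreated tumors. Of 84 members that passed the filter on low counts, 58 were lower and 1 was higher (limma's trend test, Benjamini-Hochberg adjusted over all genes), and the remaining 25 did not pass. Across all 16909 genes tested, 23.6% were lower and 19.6% higher. The median log2 fold change of members was -0.34, a ratio of 0.792, against -0.02 over all genes, and 81 of 84 members lay below 0. No member passed with a change of 2-fold, which 6.12% of all genes did. The 2 members that the filter removed were Rpl17 and Rps23rg1. In 15 of 84 members every combination tumor lay below every untreated tumor, against 6.04% of genes tested.

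The falls were of similar size in both subunits, with 21 of 31 small-subunit members lower (median log2 change -0.34) and 32 of 45 large-subunit members lower (-0.36). With copies summed these counts were 30 of 31 (median -0.37) and 45 of 46 (-0.37). Without untreated tumor 4 the count of lower members was 52 and the median -0.27, where 21.8% of all genes were lower. When each member was summed with its copies, 80 of 86 members were lower and none higher (median -0.36), where 23.3% of all genes were lower and 19.8% higher. Without untreated tumor 4 these sums were lower for 74 members, against 21.5% of all genes. The 6 members that did not pass after summing were Rpl29, Rpl39l, Rpl3l, Rps23rg1, Rps27l and Rps29, with log2 changes from -0.28 to 1.32. Among the 30 members with at least 80% of their family's counts on the member itself, 26 were lower (median -0.33), and without Rps27 and Rps27rt 24 of 28 were lower (-0.33).

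The 5 largest falls were in Rps18, Rpl15, Rpl35, Rpl12 and Rps19bp1. Rps18, a protein of the head of the small subunit, had 3568 to 6666 normalized counts in untreated tumors, with a median of 4028, and 2735 to 3333 with a median of 2906 in combination tumors. The groups did not overlap, and the log2 change was -0.55 ± 0.11 (SE, adjusted p = 0.000967). Rpl15, a large-subunit protein, ranged from 1953 to 2797 (median 2159) in untreated and from 1432 to 1793 (median 1530) in combination tumors. Here too every combination tumor was below every untreated tumor, with a log2 change of -0.54 ± 0.07 (adjusted p = 2.95e-05). Rpl15 held 19.5% of its family, and summed with its 12 copies it changed by -0.42 ± 0.08 (adjusted p = 0.000774).

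Rpl35, which sits at the exit of the peptide tunnel, had 2492 to 4496 counts in untreated tumors, with a median of 2985, and 1940.5 to 2409 with a median of 2114 in combination tumors, with no overlap and a log2 change of -0.52 ± 0.10 (adjusted p = 0.000628). Rpl12, at the base of the P-stalk, ranged from 374 to 804 (median 523) and from 328 to 410 (median 392), so that the groups overlapped at their edges (log2 change -0.50 ± 0.12, adjusted p = 0.00243). Rpl12 held 2.79% of its family, and its sum with 7 copies changed by -0.46 ± 0.11 (adjusted p = 0.00392). Rps19bp1, which binds the small-subunit protein Rps19 and the deacetylase SIRT1, ranged from 233 to 376 (median 285) and from 189 to 221 (median 208), with no overlap (-0.50 ± 0.09, adjusted p = 0.000264). All 5 falls kept their call when any 1 of the 16 tumors was left out.

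**Figure D2:**
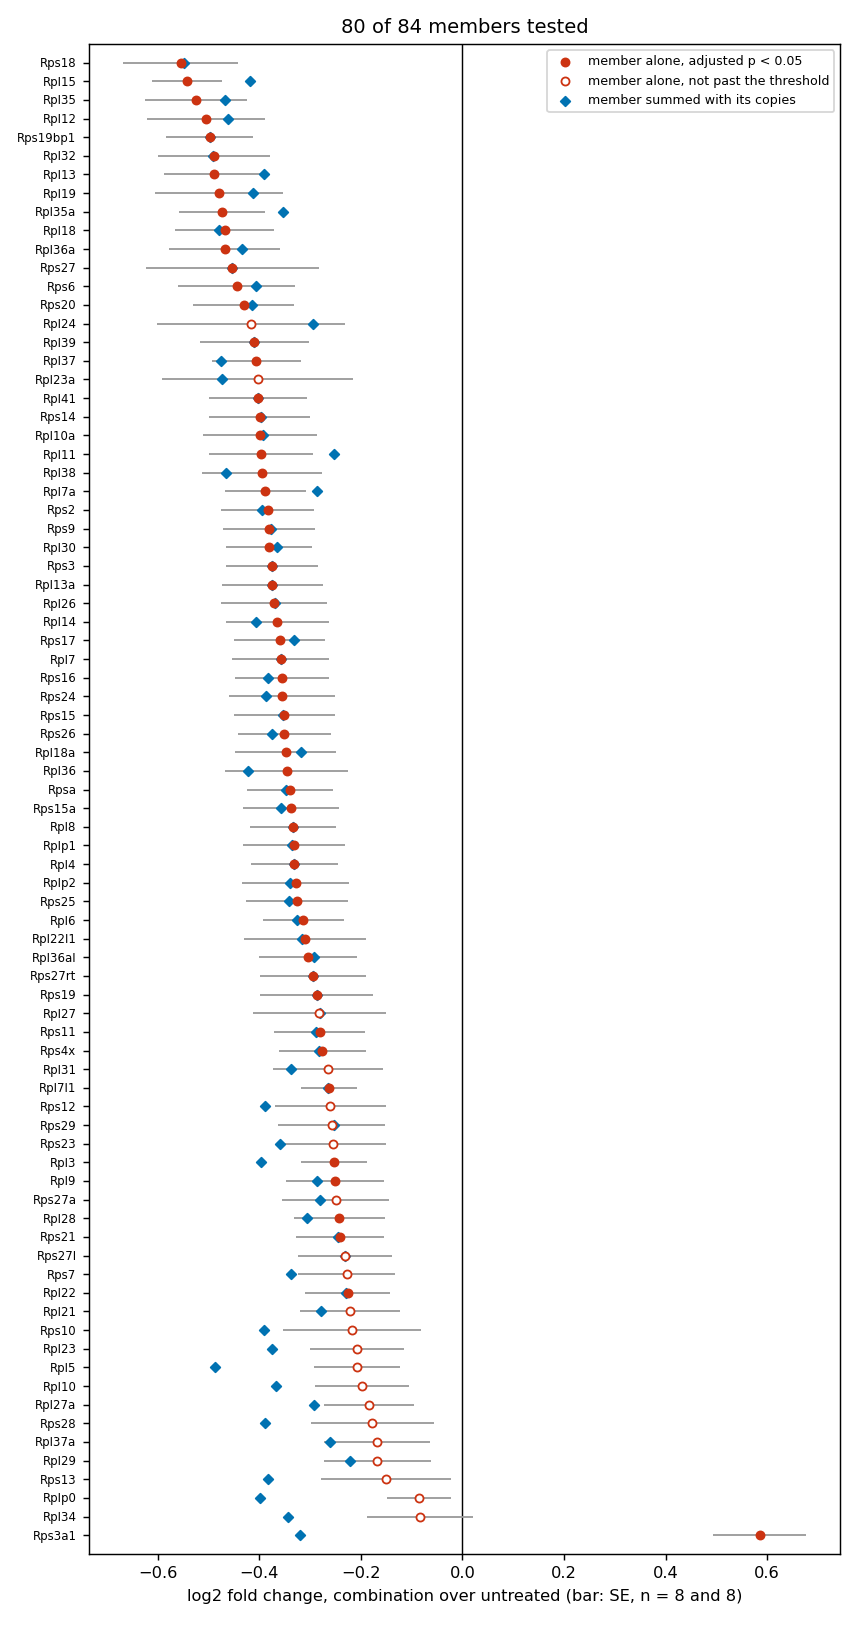
Log2 fold change of combination over untreated tumors (horizontal axis) for 80 of the 84 members tested, ordered by size, with the SE over 8 and 8 tumors. Circles give the member alone, filled where the adjusted p was below 0.05, and diamonds the member summed with its copies. Rps3a1 is the only filled circle above 0, and its diamond is at -0.32.

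Rps3a1 was the 1 member that was higher in combination tumors. It ranged from 2153 to 3059 normalized counts in untreated tumors (median 2508), from 2077 to 2491 in ADU-S100 tumors (2232), from 2193 to 2992 in anti-LTβR tumors (2618) and from 3249 to 4778 in combination tumors (3801). All 8 combination tumors lay above all 24 others. Against untreated tumors, where 4.64% of genes had all combination values above, the log2 change was 0.59 ± 0.09 (adjusted p = 0.000129).

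The copies Rps3a2 and Rps3a3 moved the other way. Rps3a2 ranged from 10368 to 17156 in untreated and from 8156 to 10267 in combination tumors (log2 change -0.47 ± 0.10, adjusted p = 0.00101), and Rps3a3 from 2186 to 4436 and from 1132 to 1711 (-0.95 ± 0.14, adjusted p = 7.69e-05). Rps3a1 made up 11.1% to 16.4% of its family in untreated tumors and 21.3% to 31.9% in combination tumors. Summed over member and copies, the family had 14974 to 24708 counts in untreated tumors, with a median of 17626, and 13281 to 15675 with a median of 14878 in combination tumors, and was lower by -0.32 ± 0.09 on the log2 scale (adjusted p = 0.0117). Whether reads were misassigned between these genes was not tested.

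**Figure D3:**
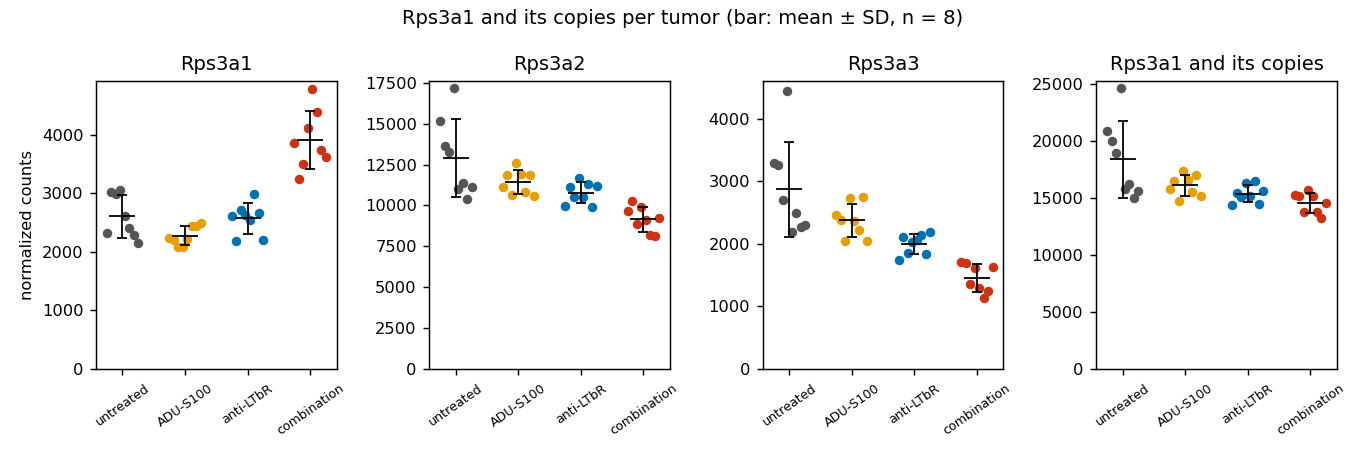
Normalized counts (vertical axes) of Rps3a1, Rps3a2, Rps3a3 and the whole family in each tumor, by group, with mean and SD over 8 tumors. Rps3a1 is highest in combination tumors, where the means of both copies drawn and of the sum with all 6 copies are lowest.

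Rplp0, Rplp1 and Rplp2 form the P-stalk, which recruits elongation factors to the ribosome. Rplp1 was lower in combination tumors (7856 to 9307, against 8644 to 15875 in untreated tumors, log2 change -0.33 ± 0.10, adjusted p = 0.0133), as was Rplp2 (1896 to 2352 against 2153 to 4022, -0.33 ± 0.11, adjusted p = 0.0185). Rplp0 alone ranged from 14966 to 17476 in combination and from 15178 to 19987 in untreated tumors and did not pass (-0.09 ± 0.06, adjusted p = 0.287). It held 57.3% of its family, and summed with its 4 copies it was lower (-0.40 ± 0.09, adjusted p = 0.00195). Rps27a, a fusion of ubiquitin and a small-subunit protein, ranged from 323 to 388 in combination and from 306 to 590 in untreated tumors and did not pass (-0.25 ± 0.11, adjusted p = 0.0654). It held 6.92% of its family, and the sum with 6 copies was lower (-0.28 ± 0.11, adjusted p = 0.0431).

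Anti-LTβR tumors also had lower levels of many members than untreated tumors. Of 83 members tested, 32 were lower and 0 higher, against 8.1% lower and 7.21% higher among 16691 genes. The median log2 change was -0.27, against 0.00 over all genes, and 82 of 83 members lay below 0. With limma the unadjusted p was under 0.05 for 72 members, all lower, and for 5586 of the 16691 genes in either direction. Among 70 members tested with edgeR 36 were lower and 0 higher, where 1325 of 15526 genes were lower and 1038 higher. A joint fit of the 4 groups called 59 lower, against 1845 of 17649 genes, and without untreated tumor 4 the count was 23 (median -0.21), against 880 of 16810 genes. With copies summed 31 of 85 members were lower and 0 higher, where 7.71% of genes were lower and 7.25% higher. Rps19bp1 had the smallest adjusted p, with 199 to 248 normalized counts in anti-LTβR tumors against 233 to 376 in untreated tumors (-0.42 ± 0.09, adjusted p = 0.00631). Rpl30, a large-subunit protein that also represses splicing of its own transcript in yeast, ranged from 1514 to 1775 against 1760 to 2829 (-0.37 ± 0.08, adjusted p = 0.00977), with overlap at the edges. Rpl15 ranged from 1598 to 2100 against 1953 to 2797 (-0.32 ± 0.07, adjusted p = 0.0106), with overlap, and its sum with copies did not pass (-0.23 ± 0.08, adjusted p = 0.0505).

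ADU-S100 tumors differed from untreated tumors in no member and in no gene at the adjusted threshold, and percent called was 0% in both directions. The median log2 change of the 83 members tested was -0.22, against 0.00 over 16613 genes, and 82 of 83 members lay below 0. At an unadjusted p under 0.05 limma gave 50 members, all lower, and 2408 genes. Over the other settings this count ran from 23 members and 1597 genes without untreated tumor 4, and 33 members and 1909 genes with the length trend of each library removed, to 62 members and 2376 genes with equal library totals and 70 members and 3163 genes in the joint fit of the 4 groups. With edgeR no member passed after adjustment. The smallest adjusted p of a member was 0.276. Without untreated tumor 4 the median was -0.15, and with copies summed no member passed either. The comparisons with untreated tumors share those 8 tumors, so the medians of -0.34, -0.27 and -0.22 rest in part on the same values.

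**Figure D4:**
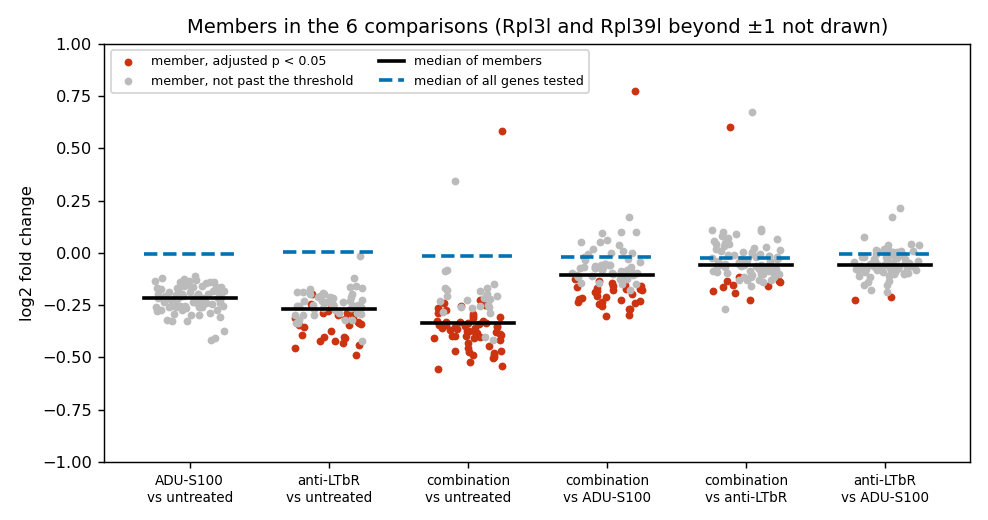
Log2 fold change (vertical axis) of each member in the 6 pairwise comparisons, with the median of members (solid line) and of all genes tested (dashed line). The median of members lies below that of all genes in all 6 comparisons. In combination against untreated tumors, Rps3a1 and Rpl39l lie above the median of all genes. Rpl3l does so in the 3 comparisons with untreated tumors, but lies outside the range drawn there, as does Rpl39l for combination against ADU-S100 tumors. Red points, past the threshold, are absent for ADU-S100 against untreated tumors.

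Between treated groups the differences were smaller. Combination tumors had 31 members lower and 1 higher than ADU-S100 tumors among 84 tested, where 26% of 16811 genes were lower and 20.2% higher, and the median log2 change was -0.11. With copies summed 49 of 86 members were lower and 0 higher (median -0.15), against 26% and 20.4% of genes. The smallest adjusted p among the lower members belonged to Rpl15, at 1738 to 2128 in ADU-S100 tumors and 1432 to 1793 in combination tumors (-0.30 ± 0.05, adjusted p = 0.000217). Rps19bp1 (-0.30 ± 0.06, adjusted p = 0.000923) and Rpl18 (-0.23 ± 0.05, adjusted p = 0.00123) followed. Rps3a1 was higher (0.77 ± 0.07, adjusted p = 4.70e-06), and summed with its copies it was lower (-0.14 ± 0.05, adjusted p = 0.0252).

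Against anti-LTβR tumors, combination tumors had 10 members lower and 1 higher, where 15.3% of 16932 genes were lower and 11.3% higher, so the members' share lower (11.9%) was below that of all genes. This split moved with the setting, to 3 lower and 2 higher with TMM scaling, 3 and 1 with equal library totals, 2 and 2 of 71 members with edgeR on recovered reads, 1 and 1 in the joint fit of the 4 groups and 5 and 2 with the replicate block. In the same order, 11.5%, 12%, 11%, 13.4% and 15.3% of all genes were lower. Genes higher were 2116 of 16933, 1926 of 16934, 2087 of 15771, 1807 of 17649 and 1965 of 16932. With copies summed 17 of 86 were lower and 0 higher (median -0.09, against -0.06 for members alone), where 15.3% and 11.4% of genes were. Rpl35a (-0.19 ± 0.05, adjusted p = 0.00828) and Rpl15 (-0.23 ± 0.06, adjusted p = 0.00853) were the lower members with the smallest adjusted p. Rpl35a held 12.48% of its family, and its sum with copies did not pass (-0.07 ± 0.04, adjusted p = 0.219). Rps3a1 was higher (0.60 ± 0.08, adjusted p = 0.000675), but summed with its copies it gave -0.08 ± 0.05 (adjusted p = 0.227). Anti-LTβR tumors had 2 members lower than ADU-S100 tumors and 0 higher, against 3.04% and 3.38% of 16649 genes, namely Rpl19 (693 to 834 against 774 to 948, -0.21 ± 0.05, adjusted p = 0.0156) and Rps19bp1 (199 to 248 against 226 to 299, -0.23 ± 0.06, adjusted p = 0.0433). Rpl19 held 8.00% of its family, and its sum gave -0.08 ± 0.04 (adjusted p = 0.276), so that with copies summed 1 member was lower and 0 higher, against 3.11% and 3.45% of genes.

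The interaction of the agents asks whether the combination differed from the sum of both single effects. It was positive, meaning a level above that given by the sum, in 83 of 84 members (median 0.16 on the log2 scale, against -0.01 over all genes), and 4 passed, all positive (4.76%), where 7.33% of 17649 genes were positive and 11% negative. How the members' share stood to that of all genes depended on the setting, since edgeR gave 11 of 72 members positive (15.3%, against 8.69% of genes), equal library totals 10 of 84 (11.9% against 7.7%) and TMM scaling 8 (9.52% against 8.45%). Those with the smallest adjusted p were Rps3a1 (0.79 ± 0.11, adjusted p = 0.00015) and Rplp0 (0.27 ± 0.07, adjusted p = 0.0117). No member passed when copies were summed, where 7.36% of genes were positive and 11.2% negative, and the sums gave 0.10 ± 0.10 for Rps3a1 and 0.01 ± 0.10 for Rplp0 (adjusted p = 0.531 and 0.945). Without untreated tumor 4 the median was 0.10. Genes of short exonic length had positive values, with medians of 0.21, 0.14, 0.12 and 0.07 for other protein-coding genes of up to 800, 1200, 2000 and 3000 bases. Members in the same classes had 0.23, 0.21, 0.16 and 0.15. Exonic length here was the union of all annotated exons, so the classes do not match genes by mRNA length. Between 3000 and 5000 bases other genes were at 0.00 and 14 members at 0.09, and above 5000 bases other genes were at -0.11 and 2 members at 0.13. With the length trend removed the member median was 0.09.

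The paralogs were examined next, since several paralogs are known to replace their parent in the ribosome of some tissues. The ratio of paralog to parent was computed per tumor for 7 of 8 listed pairs, and 21 tests were made against untreated tumors. None passed (two-sided exact permutation test, adjusted over the 21 tests, where the smallest possible p is 0.000155). The 6 tests with Rps27 as parent say nothing of its paralogs, because reads on Rps27 and Rps27rt cannot be told apart over their coding sequence. Other ratios also rest on how reads were divided between members and copies. The parents Rpl36a and Rpl3 held 4.73% and 14.8% of their families, and the paralog Rpl22l1 held 57.9% of its own. The smallest p belonged to Rpl22l1 over Rpl22, with a log2 ratio of -4.13 to -3.85 in ADU-S100 and -3.95 to -3.69 in untreated tumors (difference -0.14 ± 0.05, p = 0.00995 by the exact permutation test, adjusted p = 0.209). Rpl22 and Rpl22l1 were both lower in combination tumors (Rpl22 -0.23 ± 0.08, adjusted p = 0.038, and Rpl22l1 -0.31 ± 0.12, adjusted p = 0.0464), calls that were lost when any of 8 (untreated 1 to 4, combination 3 and 6 to 8) and any of 9 tumors (the same and combination 2) was left out, with log2 changes from -0.26 to -0.17 and from -0.35 to -0.24 over the 16 fits.

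Rps27rt, a retrogene of Rps27 on chromosome 9, averaged 10282 normalized counts per kb, against 56.5 for Rps27. Since their coding sequences are identical and the division of reads between them is not given, these 2 levels cannot be taken as separate measurements. Their sum, 98.5% of it on Rps27rt, ranged from 3369 to 3980 in combination and from 3580 to 6310 in untreated tumors (log2 change -0.30 ± 0.10, adjusted p = 0.0297), a call that was lost without any of untreated 1 to 3 or combination 3. As counted, both were lower in combination tumors, Rps27rt at 3316 to 3918 against 3534 to 6212 (-0.29 ± 0.10, adjusted p = 0.0307) and Rps27 at 43.5 to 62.2 against 45.4 to 104 (-0.45 ± 0.17, adjusted p = 0.0405). The call of Rps27rt was lost without any of untreated 1 to 3 or combination 3 (log2 change -0.34 to -0.22 over the 16 fits), and that of Rps27 without any of 10 tumors, namely untreated 1, 2, 4 and 6 and combination 2 to 4 and 6 to 8 (-0.54 to -0.37). Rps27l, a p53-responsive relative of Rps27, ranged from 512 to 643 against 564 to 936 and did not pass (-0.23 ± 0.09, adjusted p = 0.0526). Rpl36al (-0.30 ± 0.10, adjusted p = 0.0181) and Rpl7l1 (-0.26 ± 0.06, adjusted p = 0.0012) were lower, as were their parents Rpl36a (-0.47 ± 0.11, adjusted p = 0.00254) and Rpl7 (-0.36 ± 0.09, adjusted p = 0.00616). Of these parents Rpl36a held 4.73% of its family and Rpl7 89.2%. Rps19, the partner of Rps19bp1, was lower (-0.29 ± 0.11, adjusted p = 0.047), a call that was lost in 12 of the 16 fits that left out 1 tumor, and held without untreated 5, 7 or 8 or combination 4 (-0.34 to -0.20 over the 16 fits).

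Rpl3l, the paralog of Rpl3 in heart and skeletal muscle, varied widely among tumors of every group. It ranged from 11.02 to 326 normalized counts in untreated tumors (median 27.5), from 19.7 to 580 in ADU-S100 tumors (196), from 14.4 to 432 in anti-LTβR tumors (274) and from 18.9 to 808 in combination tumors (255). The groups overlapped throughout, and the change in combination tumors did not pass (1.32 ± 0.91, adjusted p = 0.253). The sum of 5 skeletal muscle markers (Acta1, Ckm, Myh4, Mylpf and Tnnt3), none at 0, varied with it, from 5104 to 110870 for untreated tumors, 6334 to 202907 for ADU-S100, 6092 to 146440 for anti-LTβR and 6121 to 324487 for combination tumors. The highest Rpl3l value, in combination tumor 6, came with the highest marker sum, and the lowest, in untreated tumor 1, with a sum of 5237. Rpl3 itself, with 14.8% of its family's counts, ranged from 2115 to 3438 and was lower in combination tumors (-0.25 ± 0.06, adjusted p = 0.00492). Rpl39l, a paralog known from the testis, ranged from 0.974 to 67.4 counts over the 32 tumors and did not pass (adjusted p = 0.707).

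**Figure D5:**
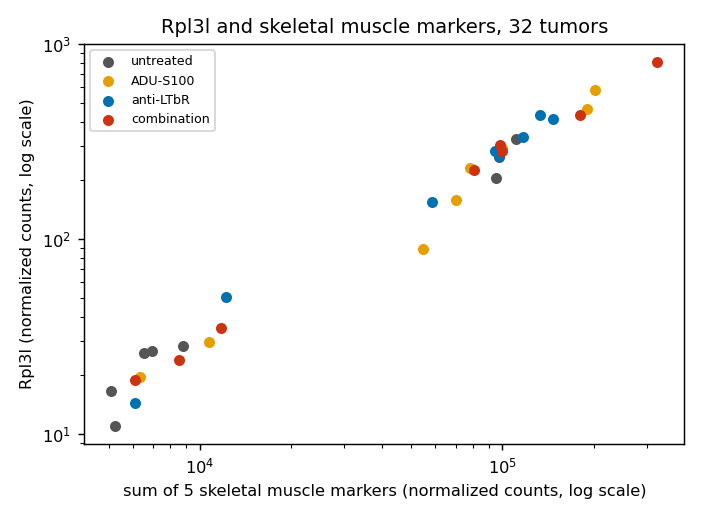
Rpl3l (vertical axis, log scale) against the sum of 5 skeletal muscle markers (horizontal axis, log scale), both in normalized counts, for 32 tumors colored by group. Tumors of every group lie at both ends, from 11.02 to 808 for Rpl3l.

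Ribosomal proteins that the rule leaves out by name were also lower. Rack1, a scaffold on the small subunit, was lower in combination tumors (12377 to 16428 against 15664 to 24224, -0.39 ± 0.09, adjusted p = 0.00253), as was Fau, a ubiquitin-like fusion (-0.28 ± 0.11, adjusted p = 0.0457). Of 20 other mRNAs known or held to carry a TOP motif, of translation factors and other proteins, 16 were lower and 0 higher (median -0.32). Among them were the initiation factors Eif3l (-0.48 ± 0.05) and Eif3h (-0.48 ± 0.07) and the elongation factor Eef2 (-0.47 ± 0.08). Of 55 genes of ribosome biogenesis 52 were lower and 0 higher (median -0.34), including Imp4 (-0.37 ± 0.04), Nob1 (-0.42 ± 0.06) and Sbds (-0.40 ± 0.06). Of 78 genes of the mitochondrial ribosome 42 were lower and 0 higher (median -0.23), with Mrpl49 (-0.39 ± 0.05), Mrps22 (-0.52 ± 0.08) and Mrpl24 (-0.35 ± 0.06) the 3 with the smallest adjusted p. These lists read against 23.6% lower among all genes, and they were chosen with earlier results of these data known.

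Of 23 regulators of ribosomal protein synthesis, 9 were lower (39.1%) and 3 higher (13%) in combination tumors (median -0.13), where 23.6% of all genes were lower and 19.6% higher. Myc, a transcription factor that drives ribosome synthesis, ranged from 863 to 1610 in combination and from 1537 to 3142 in untreated tumors (-0.86 ± 0.14, adjusted p = 0.000233). Gabpa (-0.38 ± 0.07, adjusted p = 0.000411), an ETS factor, and Rheb (-0.37 ± 0.08, adjusted p = 0.00144), which activates mTOR, were also lower. Mxd4 (0.57 ± 0.09, adjusted p = 0.000108), which opposes MYC, Tsc1 (0.28 ± 0.07, adjusted p = 0.00425), which restrains Rheb, and the kinase Rps6kb2 (0.26 ± 0.08, adjusted p = 0.0114) were higher. In anti-LTβR tumors 8 of 20 TOP mRNAs, 30 of 55 biogenesis genes and 19 of 78 mitochondrial ribosome genes were lower, and 0 of each were higher, where 8.1% of all genes were lower and 7.21% higher. Of 22 regulators tested there, 2 were lower and 1 higher. In ADU-S100 tumors none of these passed, and the medians were -0.10, -0.12 and -0.13 for the 3 lists and 0.06 for the regulators.

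Cell type markers moved in the same comparisons. The 5 epithelial markers Epcam, Krt8, Krt18, Krt19 and Cdh1, none at 0, summed to 15947 to 28939 for untreated tumors, 13223 to 21772 for ADU-S100, 13111 to 16160 for anti-LTβR and 6829 to 14654 for combination tumors, and 3 of 5 were lower in combination and in anti-LTβR tumors. The 5 fibroblast markers summed to 58683 to 93933 in untreated and 100606 to 372656 in combination tumors, where all 5 were higher. All 5 T cell markers, 4 of 5 B cell markers, 3 of 4 plasma cell markers, 3 of 5 macrophage markers and all 4 endothelial markers were higher in combination tumors, and 1 of 4 neutrophil markers and Ptprc, found on all leukocytes, were higher as well. None of the 5 proliferation, 5 skeletal muscle, 4 skin and 3 adipocyte markers passed in combination against untreated tumors. In anti-LTβR tumors Ptprc, 2 of 5 T cell, 2 of 5 macrophage, 1 of 5 B cell, 1 of 4 plasma cell, 1 of 4 endothelial and 1 of 5 proliferation markers were higher than in untreated tumors. The 3 acinar markers of normal pancreas in the table, of 4 listed, summed to at most 63.6, and Amy2a5 was at a median of 0. The part of these cell types in the lower member levels was not tested.

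Ribosomal protein mRNAs are short, so exonic length was also compared. It was the union of all annotated exons of a gene and reached 6256 bases for Rps24 and 6270 for Rps15a. The classes and the length trend below therefore do not match members with other genes by mRNA length. Other protein-coding genes, grouped by exonic length in 6 classes, had median log2 changes from -0.07 to 0.07 in combination against untreated tumors, whereas member medians in the same classes ran from -0.40 to -0.33. Against untreated tumors, genes with 800 to 1200 exonic bases had medians of -0.12 in anti-LTβR and -0.12 in ADU-S100 tumors, and genes above 5000 bases 0.05 and 0.06. With the length trend of each library removed, the member medians were -0.30 in combination, -0.23 in anti-LTβR and -0.16 in ADU-S100 tumors. In the same order 58, 33 and 0 members were lower, against 24.7%, 9.09% and 0% of all genes.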

How the data were processed

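Bulk polyadenylated RNA of 32 KPC tumors was analysed. The authors deposited a signal, estimated reads of each gene scaled with a size factor for each library, and a table of 52 libraries and 27894 genes. From this table whole reads were recovered, 12762453 to 15591986 per tumor of the 32. Of the values checked 100% lay within 0.1 of a whole number, and the highest values were left out of this check. The submitters' notes name HISAT2, StringTie, STAR, Partek and mm39, and which made each table was not settled. The deposited enrichment scores of the authors were not used, and 0 sample columns were left unused. The other 20 libraries belong to another experiment and enter no comparison.

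Groups were compared with limma 3.58.1 (R 4.3.3, trend test, two-sided) on log2(value + 1), each pair on its own 16 libraries and the interaction on all 32, after the filterByExpr filter of edgeR 4.0.16 (count minimum 10). P-values were adjusted by Benjamini-Hochberg over all genes and called below 0.05, and 2-fold changes were also counted. Fold changes on this scale understate low genes. Alternatives were edgeR's quasi-likelihood test with TMM, DESeq2 1.42.0 on recovered reads, other scalings, filters and pseudocounts, a joint fit, the replicate block and leaving out tumors. Summing copies (blastn 2.17.0) or Rps27 with Rps27rt, removing the length trend and leaving out untreated tumor 4 elsewhere than in the main comparison were chosen after seeing the data. Exonic lengths and positions are from GENCODE of GRCm38, and all 86 members matched.

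Members and lists were chosen with earlier results of these data known. Members named were the 5 largest rises and falls called in combination against untreated tumors, the 3 smallest adjusted p per direction elsewhere, every paralog with its parent, the P-stalk and Rps27a, and the 3 highest and lowest levels per kb. Members named for their copies (Rpl5, Rpl10) were chosen after their values were seen. P-values measure the spread between tumors, and whether a mouse carried more than 1 is not given in the sources used here. The fits were tested on simulated data with known changes. A few items that these rules name are not reported here.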

Additional observations from a re-analysis of the deposited data

Results flagged for a closer look

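Levels of the named members and their summed share were checked for single tumors far from the other 7 of their group, which chance gives in about 1 in 20 groups, and 11 of 136 groups held one. In untreated tumors it was tumor 4 in each case, highest for Rpl35a (869.9 normalized counts), Rpl36a (293.9) and Rplp2 (4022). In anti-LTβR tumors, tumor 6 was far above the others for Rpl19 (834) and Rps27rt (4333), tumor 4 for Rps19bp1 (248), and tumor 7 far below for Rps27a (291). In ADU-S100 tumors, tumor 8 was highest for Rpl39l (64.4) and tumor 3 lowest for Rps27a (295). In combination tumors, tumor 4 was highest for Rpl17 (18.04, with 0.0737% of its family's counts on the member) and tumor 8 lowest for Rps27l (512).

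The effect of ADU-S100 differed with and without the antibody, by the interaction term of the fit of 32 tumors with limma, for Rps3a1 (0.79 on the log2 scale, adjusted p = 0.00015), Rplp0 (0.27, adjusted p = 0.0117) and Rpl10 (0.37, adjusted p = 0.04). Rpl10, named here for this result, held 3.56% of its family. None of these passed when each member was summed with its copies.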

How the results depend on the processing

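Counts of members called kept within 1.5 times, or moved as follows. At 2-fold the count was 0 in each of the 6 comparisons and the interaction. Leaving out each tumor in turn gave 50 to 67 members called in combination against untreated tumors. For anti-LTβR against untreated tumors the joint fit called 59. For combination against anti-LTβR tumors (11 called), edgeR with TMM, equal totals and equal totals without the members called 4 each, TMM scaling and no filter 5 each, the joint fit 2, the replicate block 7 and summed copies 17. For combination against ADU-S100 tumors summed copies called 49. For anti-LTβR against ADU-S100 tumors (2 called), no filter and summed copies called 1 each, and the joint fit and the replicate block 0. For the interaction (4 called), edgeR called 11, equal totals 10, TMM scaling and equal totals without the members 8 each, and summed copies 0. The mean share of counts was 1.75%, 1.70% and 1.64% on recovered reads (ADU-S100, anti-LTβR, combination), which lack 13 members, and 4.98%, 4.29%, 4.15% and 3.90% with copies (untreated first). Rps3a1 in combination against untreated tumors reversed to -0.32 with summed copies, because its copies hold most of the family's reads. The cause of the other moves was not tested. With the replicate block, combination against untreated tumors gave 68 members called. The labels tie replicate numbers to no mouse or batch. Same-numbered tumors deviated together (correlation over 0.1) in 4 of 8 pairs there and in 2 to 4 of 8 in the other comparisons. Tumors numbered 1 did so in all 6 comparisons (0.35 to 0.73), and those numbered 2 ran from 0.08 to 0.43. Every other number also gave negative values, down to -0.65 for number 3. Whether the numbers mark a pairing or a batch is therefore not settled. Rpl17, Rpl24 and Rpl39l rest on few counts, of which Rpl17 and Rpl24 have most of their family's counts on copies.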

Other observations

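The 20 libraries of the other experiment in the larger table hold 73 of the members. In the 5 labelled combination in all their labels the share of counts on these members ranged from 2.63% to 8.02% (median 3.12%), and in the 15 whose labels contradict each other from 2.34% to 7.19% (median 2.79%). In the 32 tumors of the main experiment the same 73 members took from 1.48% to 2.64% in this table.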
